A study of Homo sapiens with 24 samples.

Results

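S100A8-Flag occupied 18569 genomic sites in MCF-10A–ER-Src cells treated with ethanol (EtOH) or tamoxifen (TAM), out of 30322 sites for S100A8-Flag and S100A9-Flag together. A site was a merged region in which peaks of at least 2 replicates of a treatment had a q value of 1e-07 or less, on chromosomes 1 to 22 and X. Sites of the 2 treatments were joined where they overlapped by at least 1 bp. A site found in both treatments was called kept, a site found in TAM alone was called gained, and a site found in EtOH alone was called lost. These names describe calls in peak lists and not a measured amount of protein on DNA.

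MCF-10A cells are immortalized, nontransformed epithelial cells of the human breast. In the cells studied, the oncoprotein v-Src was present as a fusion called ER-Src, which stays inactive until its estrogen receptor portion binds a ligand. All 5 S100A8 libraries came from a stable line that also carried S100A8 with a C-terminal Flag tag, delivered by a retroviral vector, in addition to the endogenous gene. The 2 EtOH libraries came from cells given the solvent and the 3 TAM libraries from cells given 1 μM 4-hydroxytamoxifen, which activates ER-Src and transforms the cells, both for 24 hours. Before ChIP with a Flag antibody, proteins were cross-linked to each other and, in a further step, to DNA by formaldehyde. Replicates are labeled as biological, without further detail on the cultures, so that p values measure the spread between these libraries. Flag ChIP from cells without the tag was not analyzed here, and peak lists hold no expression values by which the identity of the cells could be checked.

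S100A8 and S100A9 are small calcium-binding proteins that pair into calprotectin, which is abundant in neutrophils and is induced in inflamed epithelium. Outside the cell, they act through receptors such as TLR4 and RAGE. Neither protein has a known DNA binding domain, so that an association with chromatin is expected to pass through other proteins. AP-1, a dimer of JUN and FOS family proteins, occupies many epithelial enhancers, whereas ETS factors commonly occupy promoters of housekeeping genes.

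The sites below are examples of sequences at the peak summits, and most of them hold a motif. Each is 101 bp of GRCh37 (hg19), plus strand, centered on the site summit, with capitals marking a consensus motif on either strand. The motifs are ETS (CGGAAG), KLF/SP1 (CCCCGCCC), AP-1 (TGACTCA), C/EBP (TTGCNNAA), and TEAD (CATTCCA). Several sites named later, such as those at EPRS1, RASA3, LBR, DUSP5, and ATP11A, hold no motif in a window of this length and are not printed. The first pair are kept promoters with an ETS motif, followed by the promoter of S100A8 itself, which holds none of the motifs searched in this window.
SECISBP2L promoter, chr15:49338697-49338797: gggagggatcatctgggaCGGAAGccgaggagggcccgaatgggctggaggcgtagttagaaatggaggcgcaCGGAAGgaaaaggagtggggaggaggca
MRPS31 promoter, chr13:41345346-41345446: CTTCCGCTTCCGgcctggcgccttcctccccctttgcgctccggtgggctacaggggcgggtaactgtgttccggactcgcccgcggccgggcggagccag
S100A8 promoter, chr1:153363590-153363690: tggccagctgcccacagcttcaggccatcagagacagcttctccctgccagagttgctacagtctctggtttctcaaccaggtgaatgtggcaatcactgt
A gained promoter with a KLF/SP1 motif comes next. The gained distal sites near PFKFB3, RANBP3L, and GLT1D1 follow, with AP-1 or C/EBP motifs close to the summit.
DHTKD1 promoter, chr10:12110717-12110817: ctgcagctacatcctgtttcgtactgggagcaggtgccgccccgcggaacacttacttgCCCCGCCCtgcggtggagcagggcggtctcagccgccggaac
PFKFB3 distal site, chr10:6341303-6341403: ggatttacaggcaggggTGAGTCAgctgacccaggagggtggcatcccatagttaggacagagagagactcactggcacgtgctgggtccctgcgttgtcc
RANBP3L distal site, chr5:36373669-36373769: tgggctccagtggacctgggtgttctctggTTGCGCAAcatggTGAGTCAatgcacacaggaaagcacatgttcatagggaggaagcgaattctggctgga
GLT1D1 distal site, chr12:129423611-129423711: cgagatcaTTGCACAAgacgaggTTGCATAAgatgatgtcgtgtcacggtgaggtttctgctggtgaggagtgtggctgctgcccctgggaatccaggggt
The last pair are lost distal sites, and the site near FAT2 holds a TEAD motif.
FAT2 distal site, chr5:151007863-151007963: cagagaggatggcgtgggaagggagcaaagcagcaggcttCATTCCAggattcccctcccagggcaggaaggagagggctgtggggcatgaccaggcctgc
HAUS7 distal site, chrX:152728746-152728846: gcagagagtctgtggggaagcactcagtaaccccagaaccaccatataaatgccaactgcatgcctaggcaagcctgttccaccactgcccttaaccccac

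TAM libraries had more S100A8 peaks than EtOH libraries, and a smaller part of these peaks was at promoters. The EtOH libraries had 4327 and 4609 peaks with q ≤ 1e-07, and the TAM libraries had 29381, 24117, and 21518. The difference of means was 2.47 on the log2 scale, the ranges did not overlap, and an exact permutation test over the libraries (two-sided) gave p = 0.2, the smallest value that 2 against 3 libraries allow. A peak was called promoter-proximal when its summit was no more than 1500 bp before or 250 bp after a transcription start site (TSS) of a protein-coding gene, and distal otherwise. Promoter-proximal peaks were 47.5 and 47.8% in EtOH and 29.2, 29.9, and 31.1% in TAM, a difference of -17.6 percentage points without overlap (exact permutation test, p = 0.2). With the 4327 peaks of lowest q in every library, the promoter share was 47.5 and 47.9% in EtOH and 41.9, 36.8, and 39.3% in TAM, so that the difference shrank to -8.34 points. The lists give no read numbers, and sequencing depth, the amount of Flag protein in the nucleus, and the strength of binding therefore cannot be told apart as sources of a higher peak number. With Benjamini-Hochberg adjustment over the 4 tests of single values between treatments, each p was 0.2.

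**Figure D1:**
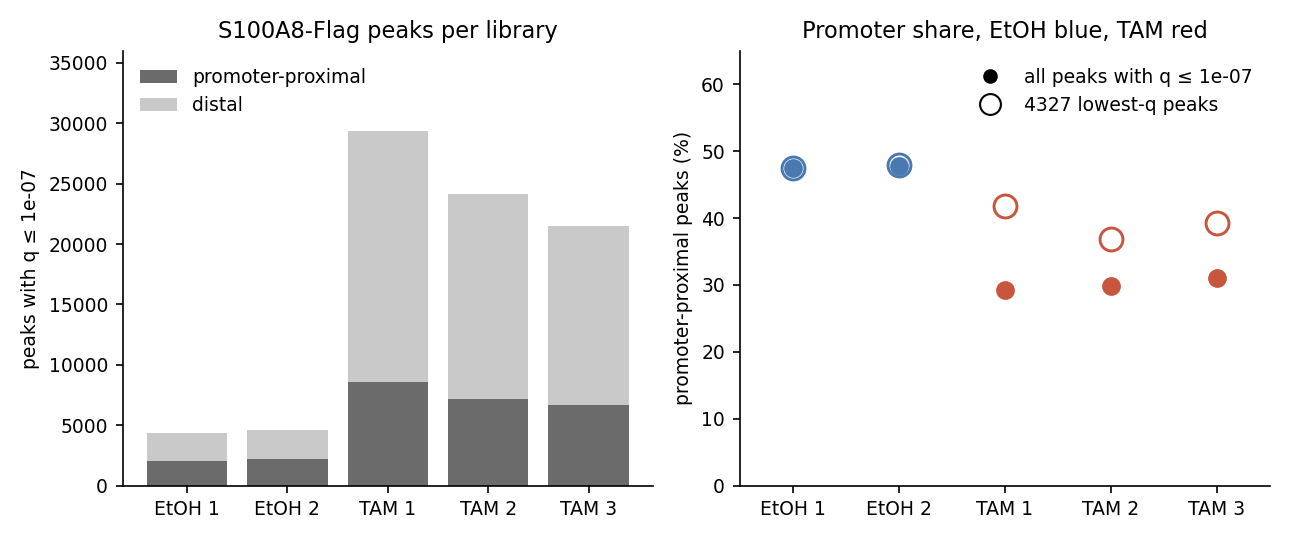
Number of S100A8-Flag peaks with q ≤ 1e-07 in each of the 5 libraries, split into promoter-proximal and distal peaks (left), and the percentage of promoter-proximal peaks among all such peaks (filled circles) or among the 4327 with the lowest q (open circles) (right). Both EtOH libraries lie above the 3 TAM libraries in promoter share, by less when the number of peaks is equal.

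Of the 18569 sites, 1048 were kept (5.64%), 17350 were gained (93.4%), and 171 were lost (0.921%). Promoters made up 661 of the kept sites (63.1%), 5957 of the gained sites (34.3%), and 67 of the lost sites (39.2%). Among the 1225 EtOH sites, 1054 (86.0%) overlapped a TAM site, and among the 18407 TAM sites, 1057 (5.74%) overlapped an EtOH site. EtOH and TAM summits of a kept site were a median of 40 bp apart, and those of EtOH 1 and EtOH 2 at the same sites were 41 bp apart. Kept sites had a median width of 586 bp, gained sites 346 bp, and lost sites 296 bp.

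Position within promoters was alike in the classes. Kept promoter summits lay a median of 50 bp upstream of the TSS (middle range -125 to -8 bp), gained summits 58 bp upstream (-183 to -3 bp), and 80.3 and 76.0% of them were on the upstream side. Distal sites were in introns in 32.6% of kept, 42.5% of gained, and 40.4% of lost cases, and in exons in 13.2, 6.71, and 11.5%. The remaining 54.3, 50.8, and 48.1% were intergenic. The median distance to the closest TSS was 18569 bp for kept, 23870 bp for gained, and 20115 bp for lost distal sites. More than 50 kb separated the TSS from 25.3% of kept and 31.4% of gained distal sites.

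The calls at the edge of the classes were close to the threshold. The lowest second-best peak inside an EtOH site had a −log10 q of 7.01, and the highest outside had 6.99. For 524 EtOH regions the second-best peak was between 6 and 7, against 429 between 7 and 8. Gained sites were therefore set against every EtOH peak as deposited, which reaches down to q = 0.05. Of the gained sites, 7743 (44.6%) had no EtOH peak at all, 5842 had a peak in 1 EtOH library, and 3765 had peaks in both. A call with q ≤ 1e-07 in 1 EtOH library was present at 3688 gained sites (21.3%), of which 1846 were at promoters (31.0% of gained promoters). An EtOH site needed both EtOH libraries, whereas a TAM site needed 2 of 3. Of EtOH 1 peaks with q ≤ 1e-07, 28.4% overlapped EtOH 2, and 59.8 to 67.5% overlapped a single, longer TAM list. At promoters, 1361 of 5957 gained sites (22.8%) had no EtOH peak, and at distal positions 6382 of 11393 (56.0%) had none. At 12 gained sites called in 2 TAM libraries and 14 called in all 3, both EtOH libraries had a call with q ≤ 1e-07, but the EtOH peaks did not overlap each other. A stricter set of 1773 gained sites, called in all 3 TAM libraries and without any EtOH peak, held 320 promoter and 1453 distal sites.

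Lost sites mostly retained some S100A8 peak in TAM. Of the 171 lost sites, 131 had a TAM call with q ≤ 1e-07 in a single library, 37 had none, and 3 had 2 calls that did not overlap each other. Among the TAM peaks as deposited, 79 lost sites had a peak in all 3 libraries and 9 had a peak in none. The lost class also depended on the number of TAM libraries. When TAM 1, TAM 2, or TAM 3 was left out, the number of lost sites was 383, 354, or 333, and the number of gained sites was 9341, 9632, or 10533. With the 4327 peaks of lowest q per library, 488 sites were kept, 2092 gained, and 664 lost, and 629 of these 664 lost sites (94.7%) still overlapped a TAM peak with q ≤ 1e-07. A single TAM library overlapped a single EtOH library in 24.4 to 26.3% of peaks at this equal number, against 26.9% for the EtOH replicates with each other and 28.3 to 31.2% for pairs of TAM replicates.

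By the rule, kept promoters had a site in both treatments, and those of highest rank are described here. In all 5 libraries, 792 sites were called, of which 523 were at promoters (66.0%). Of the 792 sites, 778 were kept, and the other 14 counted as gained because their EtOH peaks did not overlap each other. The 8 promoters with the highest mean percentile of q over the libraries are named. The percentile is the rank of a peak within its own library, and the −log10 q values below are those of single libraries and were not tested between treatments. Of the 100 sites among the 792 with the highest percentile, 27 were on chromosome 1, 15 on chromosome 13, and 15 on chromosome 15. With ranks by fold enrichment, these numbers were 15, 11, and 11. The same chromosomes held 12.9, 3.22, and 5.14% of all S100A8 sites. At the 792 sites, median −log10 q was 10.4 and 10.4 in EtOH and 19.3, 18.3, and 16.6 in TAM. Median fold enrichment over input at these sites was 8.74 and 8.49 in EtOH and 10.1, 9.13, and 9.06 in TAM. At the promoter of TATDN3, which encodes a TatD family DNase (chr1:212964784-212965418, summit 4 bp downstream of the TSS), −log10 q was 21.1 and 38.5 in EtOH and 56.4, 59.6, and 46.2 in TAM. MRPS31, a protein of the small mitochondrial ribosomal subunit (chr13:41345118-41345662, 70 bp upstream), had values of 33.3 and 24.2 in EtOH and 35.3, 32.0, and 26.0 in TAM, which overlap. Its 2 adjoining ETS motifs are shown above.

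NUF2, a kinetochore protein of the NDC80 complex (chr1:163291450-163291979), had −log10 q of 27.9 and 33.7 in EtOH and 67.2, 40.7, and 24.3 in TAM, so that TAM 3 lay below both EtOH libraries. EPRS1 encodes the glutamyl-prolyl-tRNA synthetase, and its promoter (chr1:220219634-220220171) had 17.0 and 27.4 in EtOH and 36.3, 40.7, and 48.2 in TAM without overlap. SECISBP2L, related to a binding protein of selenoprotein mRNAs (chr15:49338361-49338953), had 32.4 and 21.3 in EtOH and 64.9, 35.0, and 25.1 in TAM, with overlap. The other named promoters were those of BNIP1, a SNARE protein of the endoplasmic reticulum, ERCC5, an endonuclease of nucleotide excision repair, and EIF2D, a factor of noncanonical translation initiation. Their EtOH values ran from 15.4 to 29.3 and their TAM values from 28.9 to 55.6. In EIF2D the lowest TAM value, 28.9, was below the highest EtOH value, 29.3, whereas the treatments did not overlap for BNIP1 and ERCC5. On the fold enrichment scale, the treatments overlapped for EPRS1 and BNIP1 but not for ERCC5. EPRS1 had fold enrichment of 8.43 and 10.99 in EtOH and 11.1, 10.8, and 15.2 in TAM. BNIP1 had 9.71 and 14.6 in EtOH and 12.9, 15.01, and 17.5 in TAM. ERCC5 had 11.5 and 8.75 in EtOH and 14.5, 12.8, and 13.9 in TAM.

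The named kept distal sites were mostly inside genes. The site with the widest region, 1561 bp (chr1:149223178-149224738), covered RNVU1-18, a gene for a variant U1 small nuclear RNA, 176664 bp from the nearest protein-coding TSS. Its −log10 q was 33.7 and 20.1 in EtOH and 81.2, 38.7, and 40.4 in TAM, and its fold enrichment over input was 9.77 and 7.43 in EtOH and 15.5, 6.30, and 10.04 in TAM. On the −log10 q scale the treatments did not overlap, and on the fold enrichment scale they did. An intronic site in RASA3, a GTPase-activating protein for Ras (chr13:114830575-114831634), had −log10 q of 21.3 and 19.9 in EtOH and 35.8, 31.4, and 23.3 in TAM. A site in an untranslated exon of ZBTB7B, a zinc finger transcription factor (chr1:154989605-154990373), had 13.8 and 20.3 in EtOH and 31.4, 46.4, and 35.5 in TAM. Both held an AP-1 motif within 100 bp of the summit, and both had all TAM values of −log10 q above the EtOH values. On the fold enrichment scale this held for ZBTB7B, with 10.4 and 12.5 in EtOH and 15.9, 19.8, and 15.9 in TAM. RASA3 had fold enrichment of 12.8 and 12.7 in EtOH and 13.05, 11.3, and 8.73 in TAM, which overlap. TAM 2 and TAM 3 thus lay below both EtOH libraries at RASA3. The remaining named sites were a coding exon of DISP2 (chr15:40659862-40660652), an intron of RNF6, which encodes a RING ubiquitin ligase (chr13:26760355-26760962), and a coding exon of ESR1 that is described with the introduced genes.

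**Figure D2:**
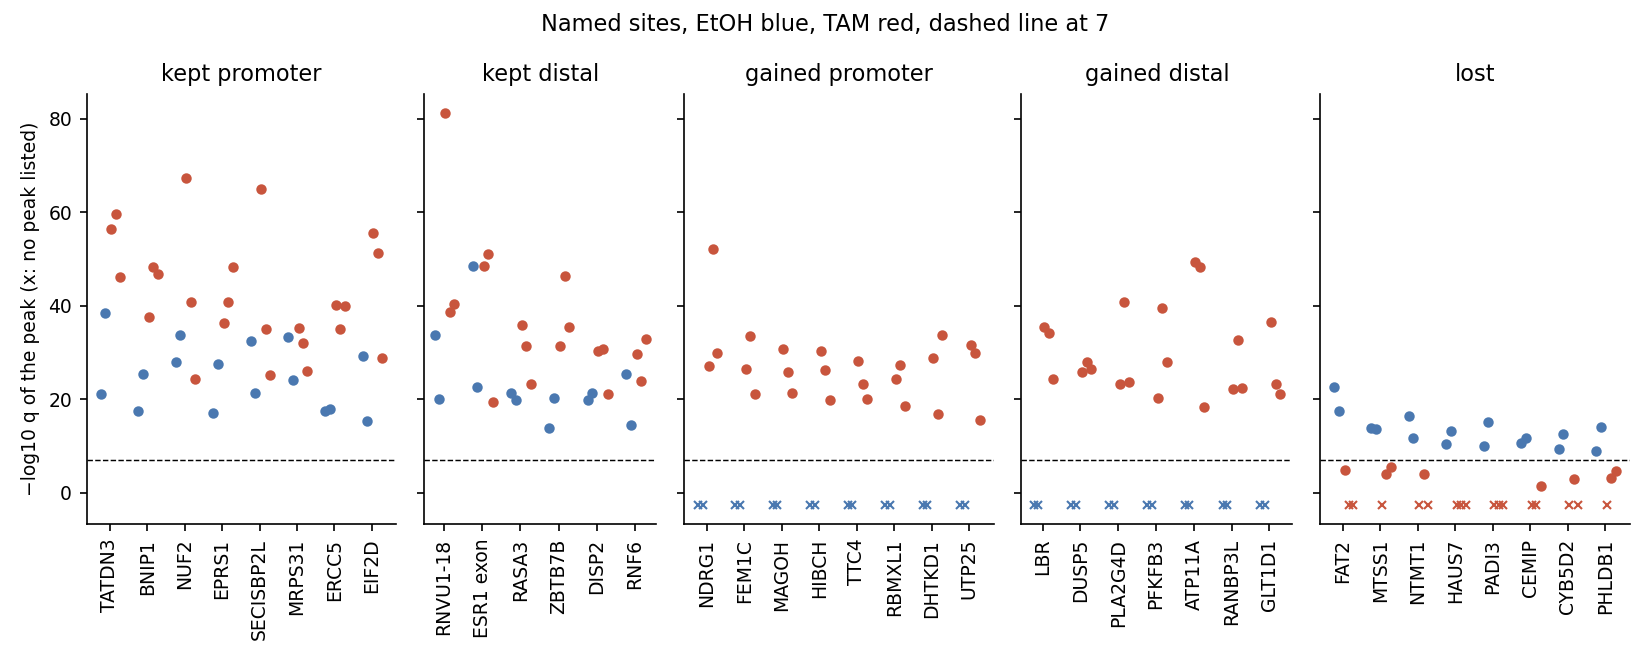
−log10 q of the S100A8-Flag peak in each EtOH (blue) and TAM (red) library at the sites named by rule, with crosses below 0 where a library lists no peak and a dashed line at the threshold of 7. Kept sites have points of both colors above the line, gained sites have 3 TAM points and no EtOH peak, and lost sites have EtOH points above the line and TAM points below it or none.

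The gained promoters of highest rank that had no EtOH peak at all were those of NDRG1, FEM1C, MAGOH, HIBCH, TTC4, RBMXL1, DHTKD1, and UTP25. These 8, with the highest mean TAM percentile, were chosen by the values below, which are given as a description. NDRG1, a gene induced by hypoxia and other stress (chr8:134315183-134315851, 1242 bp upstream of the TSS), had −log10 q of 27.0, 52.2, and 30.0 in the TAM libraries, and all 3 S100A9-Flag TAM libraries called it as well. FEM1C, a substrate receptor of a CUL2 ubiquitin ligase (chr5:114880130-114880787), had 26.6, 33.6, and 21.1. DHTKD1, a mitochondrial enzyme of lysine breakdown (chr10:12110596-12111136), had 28.9, 16.8, and 33.7. The highest library was thus TAM 2 for the first pair and TAM 3 for DHTKD1.

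MAGOH, a core protein of the exon junction complex (chr1:53703925-53704697), had −log10 q of 30.8, 25.8, and 21.3 in TAM, and HIBCH, a hydrolase of valine breakdown (chr2:191184309-191184893), had 30.4, 26.2, and 19.8. TTC4, a cochaperone of HSP90 (chr1:55181350-55181774), RBMXL1, an RNA binding protein (chr1:89458077-89459031), and UTP25, a protein of the small ribosomal subunit processome (chr1:210011947-210012194), ranged from 15.6 to 31.7. Of the 8 promoters, the summit of NDRG1 lay more than 1000 bp from the TSS, and the others lay within 186 bp.

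Of the gained distal sites of highest rank with no EtOH peak, 7 are described, and all lay 9834 bp or more from the nearest protein-coding TSS. PFKFB3 makes the activator of phosphofructokinase, and a site 75224 bp downstream of its TSS (chr10:6341113-6341542) had −log10 q of 20.3, 39.5, and 28 in TAM. It held the AP-1 motif printed above, and no S100A9-Flag EtOH library called it, against 3 of 3 S100A9-Flag TAM libraries. DUSP5 is a phosphatase of ERK, and a site 87370 bp upstream (chr10:112170050-112170522) had 25.9, 27.9, and 26.5, the narrowest spread of the 7.

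The gained distal site of highest rank (chr1:225662352-225663090) had −log10 q of 35.4, 34.1, and 24.3 in TAM. Its nearest protein-coding TSS was that of LBR, the lamin B receptor, and the site lay 46174 bp upstream of it. The body of ENAH (chr1:225674467-225840844) lay closer to this site. Introns of PLA2G4D, a phospholipase A2 (chr15:42376614-42377629), ATP11A, a phospholipid flippase (chr13:113384519-113385065), and GLT1D1 (chr12:129423472-129423742) held 3 more of the sites, and the last lay 71503 bp upstream of RANBP3L (chr5:36373588-36373951). Over these 4 sites the TAM values ran from 18.4 to 49.4. AP-1 was found within 100 bp of the summit in 3 of the 7 sites (DUSP5, PFKFB3, and RANBP3L), counted after their values were seen.

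Some genes had many gained distal sites assigned to them. A distal site was assigned to a gene when it lay within 50 kb of its TSS or in its body, and 9395 genes had at least 1 gained distal site (median 1). LAMB3, the laminin-332 beta chain (chr1:209788215-209825770), had the most, 17, of which 13 had no EtOH peak as deposited. ACTB, which encodes beta-actin, and RPTOR, the mTORC1 scaffold, had 13 each, with 4 and 6 free of any EtOH peak. DUSP1, a MAP kinase phosphatase, had 11, and ERGIC1, a protein of the secretory pathway, and VPS18, a protein of lysosomal trafficking, also had 11 each. DENND3 and FBXL18 had 10, as did HM13, ID1, and PTPN14. RPTOR spans 422 kb, which gives it more room for such sites than DUSP1, which spans 3.10 kb. A site could be assigned to more than 1 gene. DUSP1 and ERGIC1 on chromosome 5, ACTB and FBXL18 on chromosome 7, and HM13 and ID1 on chromosome 20 lie close together and can share sites. The part of gene length and neighboring genes in these counts was not tested.

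Most lost sites without a TAM call were distal. Of the 37 lost sites without a TAM call, 29 were distal, beside 60.8% of all lost, 65.7% of gained, and 36.9% of kept sites. The 8 of these 37 sites with the highest mean EtOH percentile are named. The highest was 37021 bp upstream of FAT2, an atypical cadherin (chr5:151007710-151008215), with −log10 q of 22.6 and 17.4 in EtOH and a single TAM peak of 4.98 in TAM 1. An intronic site of HAUS7, a subunit of the augmin complex of the spindle (chrX:152728626-152728881), had 10.4 and 13.1 in EtOH and no TAM peak in any library. A site 3636 bp upstream of the TSS of PADI3, a peptidylarginine deiminase of hair and epidermis (chr1:17571849-17572088), had 10.1 and 15.2 in EtOH. It likewise had no TAM peak. All 8 were chosen for EtOH calls without a TAM call, and the values are a description.

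MTSS1, a membrane-bending protein that binds actin (intron, chr8:125613852-125614117), had −log10 q of 13.8 and 13.6 in EtOH and 3.93 and 5.58 in TAM 2 and TAM 3. An intergenic site 121817 bp upstream of the TSS of NTMT1, a methyltransferase of protein N termini (chr9:132249102-132249447), had 16.4 and 11.7 in EtOH. Its only TAM peak was 4.09, in TAM 2. The remaining named sites were intronic, with the nearest TSSs those of CEMIP, a hyaluronan-binding protein (chr15:81246661-81247019), CYB5D2 (chr17:4064614-4064837), and PHLDB1 (chr11:118494084-118494305). Their EtOH values ran from 8.96 to 14.1, and their TAM values were at most 4.61. The gene that holds each intron was not determined. S100A9-Flag TAM libraries called CYB5D2 in 3 and PHLDB1 in 2 of 3 cases, and none called the other 6 sites.

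At the level of genes, 5297 of 20098 protein-coding genes gained a promoter site (26.4%), 667 kept one (3.32%), and 52 lost one (0.259%). A gene was counted as kept when its promoters had a site in both treatments, whether or not it was the same site. At any position, 1485 genes (7.39%) had a site in EtOH and 12237 (60.9%) in TAM, and 9540 (47.5%) had a distal site in TAM. Of the 52 genes with a lost promoter, 46 had a call in a single TAM library, 1 had 2 calls, and 5 had none, and none of them was without a TAM peak as deposited. The 5 were FAM104A, HSF2BP, MED18, MRPL2, and TRMT61A, named after their values were seen. MED18, a subunit of the Mediator head, had −log10 q of 8.86 and 7.72 in EtOH and 4.01 and 5.04 in TAM 1 and TAM 3. COX6C, a subunit of cytochrome c oxidase, had 13.4 and 23.2 in EtOH and 3.83, 19.3, and 3.26 in TAM, and COPB1, a coat protein of Golgi vesicles, had 25.6 and 11.7 in EtOH, 21.9 in TAM 2, 2.91 in TAM 3, and no peak in TAM 1. ZSCAN25, a zinc finger gene, had 13.7 and 8.80 in EtOH and 36.6, 5.07, and 2.91 in TAM, so that its highest value was in TAM. These 3 genes were also named after their values were seen. Gained distal sites, with no kept or lost distal site, were present at 24 of the 52 genes. For comparison, 9395 of all 20098 protein-coding genes had at least 1 gained distal site, with or without other distal sites.

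Promoters were called in EtOH more often than distal sites of the same rank in TAM. TAM sites were divided into 10 bins of equal size by their mean TAM percentile, and the share called in each EtOH library was computed for each position. In the highest bin, 49.9 and 51.1% of promoter sites and 27.5 and 30.3% of distal sites were called in EtOH 1 and EtOH 2. In the lowest bin, the shares were 8.14 and 9.09% for promoter sites and 3.97 and 4.96% for distal sites. Promoter sites were called more often in 10 of 10 bins in both libraries, by a mean of 10.6 points in EtOH 1 and 11.9 points in EtOH 2. The same held in 10 of 10 bins with ranks by fold enrichment, and in 10 of 10 bins in each of the 3 S100A9-Flag EtOH libraries. Sites are not replicates, and no test was made across them. Promoter sites were wider than distal sites, with medians of 478 and 298 bp for gained and 638 and 506 bp for kept sites. The bins did not match width, and its part in these calls was not tested.

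**Figure D3:**
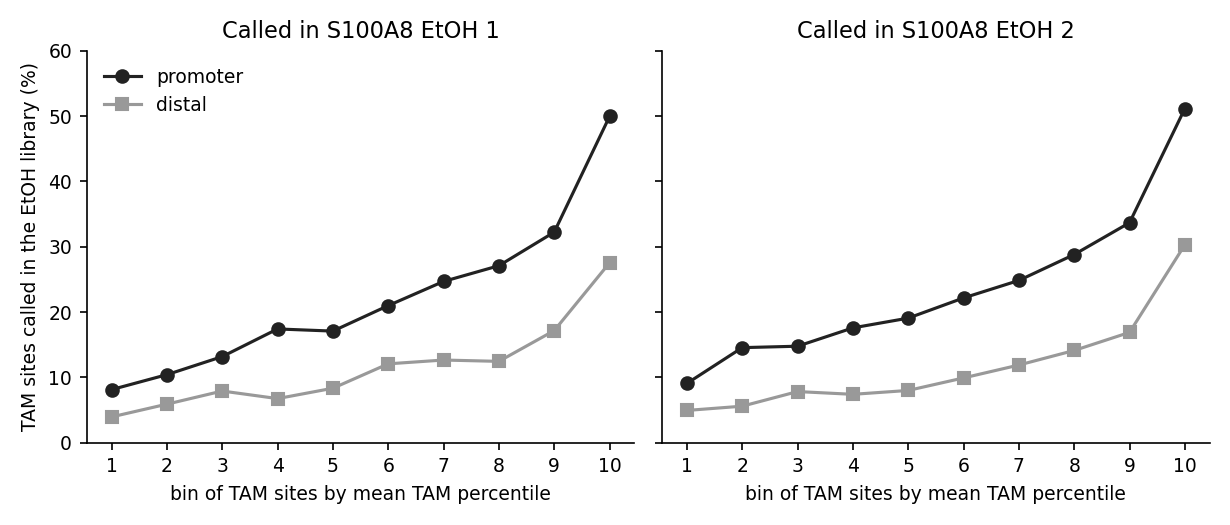
Percentage of TAM sites called in EtOH 1 (left) and EtOH 2 (right) by bin of mean TAM percentile, from 1 (lowest) to 10 (highest), for promoter-proximal (black) and distal (gray) sites. The black line is above the gray line in all 10 bins of both libraries, and both lines are highest in the last bin.

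At distal positions, AP-1 motifs were more frequent in TAM peaks, and at promoters ETS motifs were less frequent until the number of peaks was made equal. Motifs were searched within 100 bp of the summit on both strands without mismatches. The AP-1 motif was present in 25 and 24.0% of distal EtOH peaks and in 28.8, 32.2, and 33.4% of distal TAM peaks, a difference of 7.0 points without overlap (exact permutation test, p = 0.2, the smallest possible). With 4327 peaks per library, the shares were 25 and 23.9% in EtOH and 34.6, 39.2, and 42.0% in TAM. The ETS motif was present in 29.5 and 30.7% of promoter-proximal EtOH peaks and in 23.8, 26.0, and 26.8% of those in TAM, a difference of -4.55 points (exact permutation test, p = 0.2). With 4327 peaks per library, it was 29.5 and 30.8% in EtOH and 29.6, 30.9, and 33.2% in TAM, which overlap, and the difference turned to 1.05 points.

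**Figure D4:**
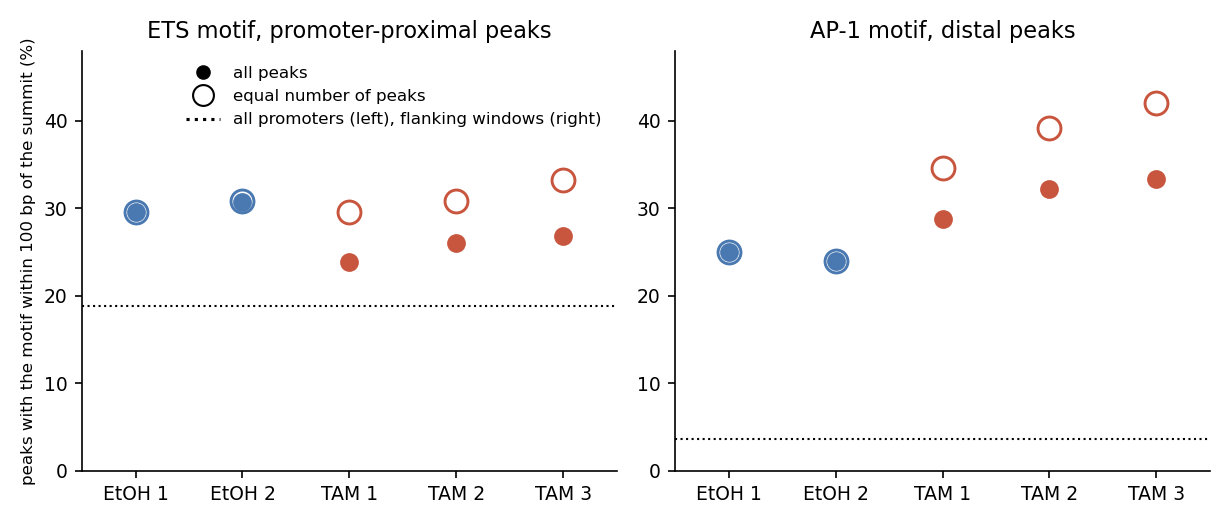
Percentage of promoter-proximal peaks with an ETS motif (left) and of distal peaks with an AP-1 motif (right) in each library, for all peaks with q ≤ 1e-07 (filled) and for the 4327 with the lowest q (open). Dotted lines mark all protein-coding promoters (18.9%, left) and flanking windows 1000 bp from distal summits (3.59%, right), and the open TAM circles for AP-1 lie above both EtOH libraries.

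The classes differed in the same motifs. An AP-1 motif was found at 36.1% of gained distal sites, 42.2% of the 1453 strictly gained distal sites, 29.5% of kept distal sites, and 23.1% of lost distal sites, compared with 3.59% of windows centered 1000 bp from distal summits. With 4327 peaks per library, the shares were 44.6% of gained, 27.9% of kept, and 25.2% of lost distal sites. In each of 5 bins of distal TAM sites by TAM rank, sites with an AP-1 motif were called less often in both EtOH libraries than those without, for example 17.0 and 19.4% against 23.8 and 24.3% in the highest bin. An ETS motif was found at 36.8% of kept, 27.0% of gained, and 34.3% of lost promoters, compared with 18.9% of all protein-coding promoters in windows of the same length. With 4327 peaks per library, these shares were 37.7% of kept, 31.9% of gained, and 37.2% of lost promoters. The KLF/SP1 motif was found at 24.2% of kept and 25.4% of gained promoters and at 25.4% of all protein-coding promoters.

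Other motifs were less frequent or closer between classes. The CTCF motif was present at 6.20% of kept, 6.58% of gained, and 9.62% of lost distal sites, compared with 0.151% of flanking windows. C/EBP was present at 11.9, 15.4, and 15.4% of these sites, compared with 9.13% of flanking windows, and TEAD at 4.91, 5.37, and 5.77%, compared with 3.5%. STAT (TTCCNGGAA) and NF-κB (GGGANTTCC) were present at 1.52 and 1.81% of gained distal sites, compared with 0.539 and 0.585% of flanking windows. At gained promoters, CREB (TGACGTCA), NRF1 (GCGCATGCG), ZBTB33 (TCGCGAGA), and ZNF143/THAP11 (ACTACAATT) were present at 2.90, 2.18, 1.65, and 0.420%, compared with 2.15, 2.19, 1.35, and 0.294% of all promoters. GC content moved with the distal classes, at 61.7% in kept, 54.5% in gained, and 60.2% in lost sites and 47.1% in flanking windows, and its part in these shares was not tested. A match of letters is a description and does not show that a factor was bound.

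S100A9-Flag, measured in a separate line that carried this protein with the same tag, was called more often in TAM than in EtOH at all 3 classes of S100A8 sites. At kept sites, 43.5, 28.9, and 44.7% were called in the S100A9-Flag EtOH libraries and 90.1, 90.3, and 97.5% in the TAM libraries. At gained sites, the shares were 9.90, 5.45, and 12.4% in EtOH and 60.4, 59.8, and 78.8% in TAM. At lost sites, they were 16.4, 6.43, and 20.5% in EtOH and 59.1, 56.1, and 72.5% in TAM. The mean difference was 53.6 points at kept, 57.1 at gained, and 48.1 at lost sites. S100A9-Flag peaks themselves increased by 3.22 in log2 number, and over all 18569 S100A8 sites the mean difference was 56.8 points. At 14141 promoters without an S100A8 site (500 bp on either side of a protein-coding TSS), a comparison added after seeing the data, calls rose from a mean of 2.23% in EtOH to 16.4% in TAM, by 14.2 points. With every S100A9-Flag peak as deposited, the differences were 22.8 points at kept, 54.9 at gained, and 37.0 at lost sites. In each class the treatments did not overlap, with p = 0.1 in an exact permutation test (two-sided), the smallest value that 3 against 3 libraries allow, and 0.1 after adjustment over the 3 classes. At the 37 lost sites without an S100A8 call in TAM, S100A9-Flag was called at 10.8, 2.70, and 8.11% in EtOH and 29.7, 37.8, and 48.6% in TAM. The change of log2 peak number was larger for S100A9-Flag than for S100A8-Flag by 0.75, which did not pass an exact permutation test of the difference (p = 0.18 over 200 arrangements).

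The genes for the factor itself were among the sites. The S100A8 promoter was kept (chr1:153363386-153363884, 91 bp upstream of the TSS), with −log10 q of 7.98 and 7.29 in EtOH and 15.1, 16.3, and 24.3 in TAM. By the rule, the promoter of S100A9 (chr1:153329974-153330507) was gained, but its values were 25.5 and 3.70 in EtOH and 31.9, 26.9, and 9.57 in TAM. EtOH 1 therefore lay above TAM 3, and the single EtOH peak below the threshold decided the class. S100A12, a neighbor in the same cluster, had a gained promoter (chr1:153347906-153348295) with values of 6.97 in EtOH 2 and 16.7, 6.95, and 23.6 in TAM, and no peak in EtOH 1. In EtOH 2 this site missed the threshold by a small margin.

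Peaks over coding exons of introduced genes were examined because reads from the vectors match these exons. A peak covered the ESR1 exon at chr6:152419867-152420098, which encodes part of the ligand-binding domain used in ER-Src, and the whole site was 301 bp wide. Its −log10 q was 48.6 and 22.7 in EtOH and 48.5, 51.1, and 19.5 in TAM, and its fold enrichment was 22.4 and 8.66 in EtOH and 11.9, 18.4, and 7.12 in TAM. The highest fold enrichment and the lowest were thus in different treatments. At 2 other coding exons of ESR1, peaks passed the threshold in some libraries. The exon at chr6:152265308-152265643 had −log10 q of 16.5 and 2.86 in EtOH and 9.36, 6.68, and 1.54 in TAM. The exon at chr6:152415520-152415703 had 10.3 in EtOH 2 and 14.6 in TAM 2, and no peak in the other 3 libraries. Chromatin of ESR1 and of the introduced copy cannot be told apart at this site by the lists. Over the coding exons of S100A8, no peak reached the threshold in any library, with values of at most 6.0 (TAM 1).

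Genes of the inflammatory network of transformation that had a promoter site had gained it at about the share of protein-coding genes in general. Over all protein-coding genes with a promoter site, 88.0% had gained it, compared with 7 of 8 AP-1 subunit genes, 8 of 10 genes of IL6 and STAT3 signaling, and 8 of 10 NF-κB genes. The lists are read against 3.32% kept, 26.4% gained, and 0.259% lost over all protein-coding genes, and against 1.6% kept, 4.08% gained, and 1.74% lost with 4327 peaks per library. Of 11 AP-1 subunit genes, 7 had a gained, 1 a kept, and none a lost promoter. All 11 had a distal site in TAM, beside 47.5% of all protein-coding genes. ATF3, a stress-induced partner of JUN, had promoter values (−log10 q) of 9.73 and 4.5 in EtOH and 36.8, 25, and 29.8 in TAM. JUNB was kept, with 7.98 and 15.8 in EtOH and 8.57, 17.0, and 5.44 in TAM, so that its treatments overlapped. FOSL2, which encodes a FOS family protein, had no EtOH peak and 13.7, 7.10, and 3.26 in TAM.

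For IL6 and STAT3 signaling, 8 of 18 genes had a gained, 1 a kept, and 1 a lost promoter. OSMR, a receptor chain for oncostatin M (chr5:38845581-38846428), had −log10 q of 6.34 in EtOH 2, no peak in EtOH 1, and 69.0, 43.0, and 47.2 in TAM, and all its TAM values were above those of ATF3. STAT3 itself had 10.4 and 6.84 in EtOH and 22.2, 36.2, and 35.4 in TAM. LIFR, the receptor for leukemia inhibitory factor, was lost by the rule, with 11.4 and 7.89 in EtOH, 17.4 in TAM 1, and no peak in TAM 2 and TAM 3. Its highest value was therefore in TAM.

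For NF-κB, 8 of 18 genes had a gained, 1 a kept, and 1 a lost promoter. The inhibitor gene NFKBIA was kept, with −log10 q of 15.7 and 14.1 in EtOH and 17.0, 15.6, and 16.3 in TAM, values that overlapped. The subunit gene RELB was lost by the rule, with 7.60 and 9.31 in EtOH and 6.34, 16.6, and 3.48 in TAM. Of 18 CXCL and CCL chemokine genes, 4 had a gained promoter, including CXCL3, with no EtOH peak and 15.8, 21.8, and 11.6 in TAM. In the IL1 family, 1 of 11 promoters was gained (IL1RN, the receptor antagonist), and in the C/EBP family 2 of 7.

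In the S100 family, 3 of 20 promoters were kept and 8 gained. S100A11 had −log10 q of 8.16 in EtOH 2, no peak in EtOH 1, and 26.5, 32.3, and 44.1 in TAM. S100A16 was kept, with 21.3 and 13.8 in EtOH and 17.5, 9.63, and 11.5 in TAM, and was thus highest in EtOH 1. Of 10 genes for receptors of S100A8/A9 and their partners, 4 had a gained and none a kept or lost promoter, with the highest TAM values at CD14 (24.4, 25.7, and 19). Immediate early genes had 12 gained and 2 kept promoters of 20. The kept pair were DUSP1, with 7.32 and 8.92 in EtOH and 69.3, 12.6, and 13.5 in TAM, and IER3.

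Adhesion genes had the largest promoter share of the lists, and none is called particular to S100A8 from this. Of 15 hemidesmosome and integrin genes, 10 had a gained and 2 a kept promoter. LAMB3 was kept, with −log10 q of 16.3 and 22 in EtOH and 36.7, 29.9, and 13.9 in TAM, so that TAM 3 was the lowest library. PLEC, which encodes the cytolinker plectin, was gained by the rule with calls of 7.17 and 13.6 in EtOH that did not overlap each other, and with 42.5, 16.7, and 27.8 in TAM. Of 18 protease genes, 6 were gained, among them ADAM17, the TNF-α converting enzyme, with 3.41 and 4.28 in EtOH and 12.7, 19.8, and 16.6 in TAM. Keratin genes had 6 gained promoters of 55, cornified envelope genes 2 of 36, and neither had a kept promoter.

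The share of kept promoters varied among transcription factor families and housekeeping complexes, beside 3.32% of all protein-coding genes. It was 16.7% of mitochondrial ribosomal protein genes, 12.7% of translation initiation factor genes, and 8.43% of cytosolic ribosomal protein genes. KLF and SP genes and ETS genes each had 5%, and proteasome genes 4.17%. Complex I genes had 2.7%, zinc finger genes on chromosome 19 had 1.97%, and replication-dependent histone genes had 0%. Of 20 KLF and SP genes, 7 were gained and 1 was kept (KLF13), and KLF5, an epithelial factor, had −log10 q of 12.3 in EtOH 2, no peak in EtOH 1, and 29.2, 29.8, and 24.3 in TAM. Of 20 ETS genes, 4 were gained and 1 was kept, ELK4, with 13.1 and 34.3 in EtOH and 36.6, 29.9, and 4.18 in TAM. Mitochondrial ribosomal protein genes had 13 kept, 34 gained, and 1 lost promoter of 78. MRPL55 was kept, with 22.6 and 10.7 in EtOH and 47.5, 22.5, and 9.01 in TAM. MRPL2 was lost, with 7.69 and 7.82 in EtOH and 6.34, 5.07, and 3.91 in TAM.

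Translation initiation factor genes had 7 kept and 27 gained promoters of 55, and cytosolic ribosomal protein genes had 7 kept and 41 gained of 83. RPS7 was kept, with −log10 q of 28.8 and 14.1 in EtOH and 8.6, 22.2, and 12.5 in TAM, and its highest value was in EtOH. Proteasome genes had 2 kept, 20 gained, and 1 lost promoter of 48, and the lost gene, PSMB3, had 8.98 and 7.18 in EtOH and 1.93, 14.5, and 3.85 in TAM. Respiratory chain complex I genes had 1 kept and 14 gained promoters of 37. Replication-dependent histone genes had 13 gained of 64, zinc finger genes on chromosome 19 had 5 kept and 63 gained of 254, and olfactory receptor genes had 2 gained of 415. With 4327 peaks per library, the mitochondrial ribosomal protein genes had 8 kept, 10 gained, and 5 lost promoters, the AP-1 subunit genes had 0 kept, 2 gained, and 1 lost, the NF-κB genes had 0, 1, and 2, and the genes of IL6 and STAT3 signaling had 1, 3, and 1.

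**Figure D5:**
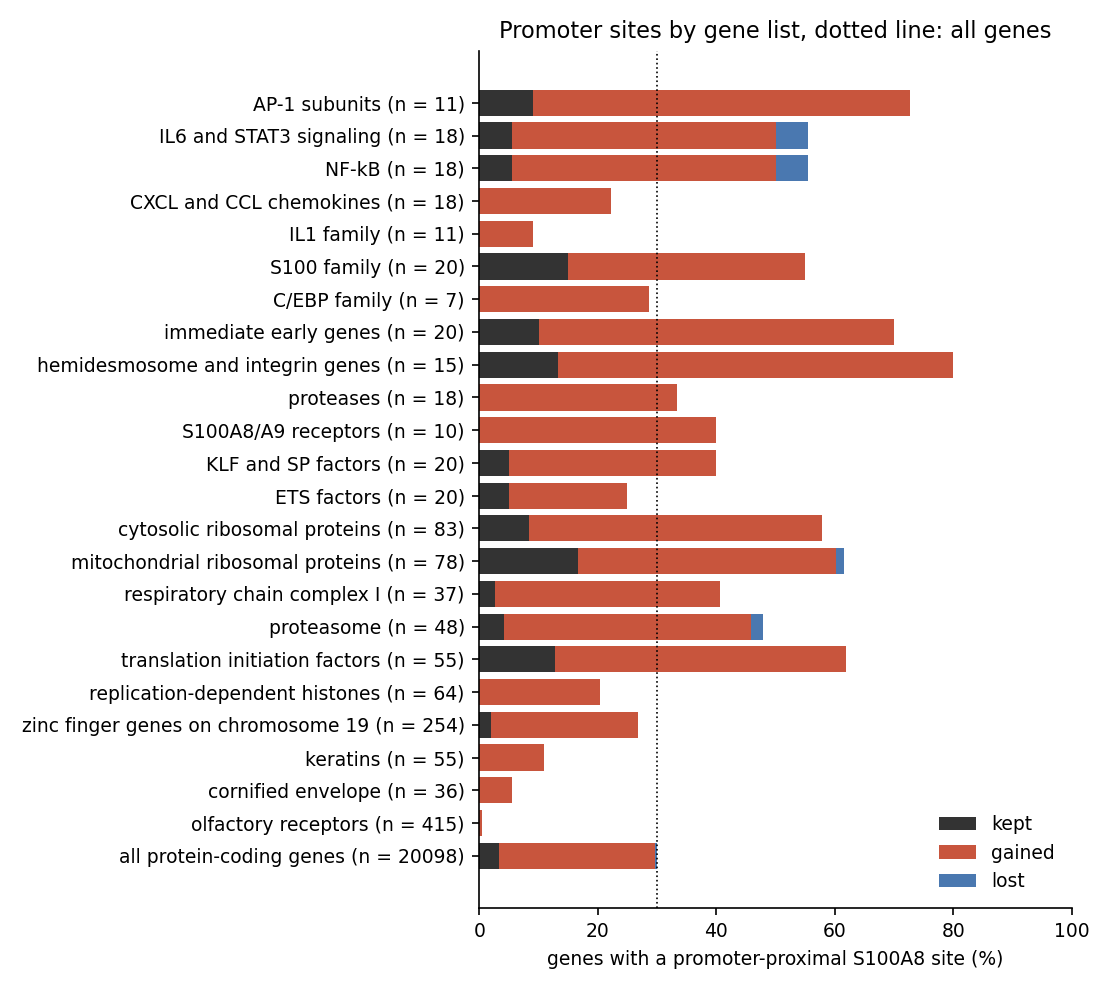
Percentage of the genes of each list with a kept (black), gained (red), or lost (blue) promoter-proximal S100A8 site, with the number of genes in parentheses and a dotted line at the total over all protein-coding genes. Hemidesmosome and integrin genes and AP-1 subunit genes have the longest bars, olfactory receptor genes have almost none, and gained promoters are the largest segment in every list.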

How the data were processed

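S100A8-Flag ChIP-seq peak lists of 5 libraries were analyzed, with the S100A9-Flag lists of 6 libraries for comparison. The authors aligned reads to hg19 with Bowtie2 and called narrow peaks in each library against its own input with MACS2, without pooling replicates, and the versions are not given in the sources used here. The deposited values per peak are fold enrichment, a ratio to input at the summit, and the q value as −log10. Both were used within a library for ranks and thresholds. Depth is unknown.

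Replicate peaks that passed q ≤ 1e-07 (chromosomes 1 to 22 and X) were merged by at least 1 bp of overlap. The site summit was that of its highest-ranked peak. Intron and exon refer to any protein-coding gene, whereas most distal sites are named by the nearest protein-coding TSS. TSSs came from GENCODE 44, lifted to GRCh37, for protein-coding genes. A promoter site was assigned to the gene of the nearest TSS only, and a summit inside the gene counted only up to 5% of the length of that gene. Motifs were exact consensus matches in 201 bp, and CTCF was searched by its consensus. EtOH and TAM were compared with exact permutation tests over libraries (two-sided), with Benjamini-Hochberg adjustment. The classification was tested on simulated peak lists.

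Named sites were the 8 promoter and 6 distal sites called in all 5 libraries with the highest mean percentile, the 8 promoter and 8 distal sites called in all 3 TAM libraries without an EtOH peak as deposited (1 of the distal sites is not reported here), the 8 highest EtOH sites without a TAM call, the 8 genes with the most gained distal sites (ties are named), sites at introduced genes, and members of the 23 gene lists (for lists over 20 genes, those with the highest or lowest TAM percentile). Other members named there were chosen after their values were seen, as were all lost list members. Members, lists, and tests were chosen with earlier results of these data known. The alternatives were other thresholds, overlaps, widths, numbers of replicates, equal numbers of peaks, promoter windows, motif windows, ranks, all sequences, each library left out, and the replicate block. Python 3.11.15, pandas 2.3.3, NumPy 2.4.6, SciPy 1.17.1, pysam 0.24.0, statsmodels 0.14.6, and Matplotlib 3.10.9 were used.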

Additional observations from a re-analysis of the deposited data

How the results depend on the processing

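Of 178 alternatives to 19 results, 70 moved and 1 reversed. The other 107 kept the direction, for differences between treatments, or stayed within 1.5 times a count or the interval of a share. The reversed value was the ETS share of promoter-proximal peaks with an equal number of peaks, 1.05 points. Among the differences that kept their direction, the promoter share was -8.34 points and the AP-1 share 14.2 points with an equal number of peaks, against -17.6 and 7.0 points, the ETS share within 50 bp of the summit was -2.79 points, against -4.55, and S100A9-Flag calls at kept sites were 22.8 points with every peak as deposited, against 53.6. In the order of EtOH sites, TAM sites, kept, gained, and lost sites, genes with a kept, gained, and lost promoter, share of EtOH sites kept, and promoter shares of kept and gained sites, the values that moved were as follows. With every peak as deposited, they were 6808, 39492, 5945, 33425, 718, 3318 (kept genes), 111 (lost genes), 89.5%, 57.5%, and 25.6%. With q ≤ 1e-10, they were 378, 9610, 309, 9298, 67, 217, 3433, 28, 82.3%, 70.2%, and 39.2%. With at least 1 replicate, they were 7692, 48924, 6295, 42551, 1284, 3092 (kept genes), 141 (lost genes), 83.3%, 49.4%, and 21.6%. With every replicate, 6878 TAM, 6100 gained, and 445 lost sites, 2384 gained and 194 lost genes, 63.7% of EtOH sites kept, and 41.3% of gained sites at promoters were found. With an equal number of peaks, these were 2582 TAM, 488 kept, 2092 gained, and 664 lost sites, 322 kept, 821 gained, and 350 lost genes, 42.6% of EtOH sites kept, and 41.1% of gained sites at promoters. With 200 bp around each summit, 81.1% of EtOH sites were kept and 33.6% of gained sites were at promoters, and with promoters 500 bp on either side of a TSS, 32.2% were. Without TAM 1, TAM 2, or TAM 3 in turn, TAM sites ranged from 10185 to 11425, gained sites from 9341 to 10533, lost sites from 333 to 383, gained genes from 3142 to 3604, lost genes from 135 to 162, the share of EtOH sites kept from 68.7 to 72.8%, and the promoter share of gained sites from 36.2 to 38.1%. Fewer TAM libraries leave fewer chances for a TAM site, and the cause of the other moves was not tested. A site needs 2 replicates, so that no class could be given without an EtOH library.

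With the replicate number as a block (EtOH and TAM libraries 1 and 2 paired, TAM 3 left out), the difference in log2 peak number was 2.58, that in promoter share -18.1 points, that in ETS share -5.19 points, and that in AP-1 share 6.04 points, each with p = 0.5 in an exact permutation test, the smallest it allows. The numbers were not treated as pairs. Calls of libraries with the same number had correlations of -0.0103 and -0.0175, against -0.00706 to 0.0175 for other numbers. These cannot decide whether the numbers are pairs. The 2 EtOH libraries were centered on their own mean, so that each EtOH 2 value is the EtOH 1 value with the sign turned. The block for the motif shares, the equal number with pairs of TAM libraries, the gene lists at equal number, and the alternatives for S100A9-Flag were chosen after seeing the data. With an equal number of peaks and 2 TAM libraries at a time, 292 to 313 sites were kept, 910 to 1053 gained, and 840 to 860 lost, and AP-1 was present at 41.9 to 49.0% of gained and 24.3 to 27.0% of lost distal sites. Depth is unknown, and a site that is absent from a list may lie below what that library could show.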

Other observations

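The sites called in every library were unevenly spread over chromosomes. Chromosome 1 held 12.9% of all S100A8 sites and 22.9% of the 792 sites called in all 5 libraries, chromosome 13 held 3.22 and 7.70%, and chromosome 15 held 5.14 and 10.6%. Chromosome X held 1.18% of all sites and 0.126% of the 792 sites. Of the 597 sites on chromosome 13, 69 were kept (11.6%), and of the 220 sites on chromosome X, 1 was kept (0.455%), beside 5.64% of all sites. These shares are given as values, with no test across sites.

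Genes with the most kept distal sites were NAV1, a microtubule-associated protein of axon guidance, with 4, and GAS6, a ligand of the receptor kinase AXL, LGR6, an R-spondin receptor, RASA3, and WNT9A, a secreted WNT ligand, with 3 each. Peaks with q ≤ 1e-07 on sequences other than chromosomes 1 to 22 and X numbered 38 and 33 in EtOH and 53, 26, and 28 in TAM.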
